A study of Mus musculus with 14 samples.

Results

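Splenic CD4 T cells of 8-month-old female C57BL/6J (B6) mice were sorted into follicular helper T cells (Tfh) and naive T cells (Tn), and the RNA of both was compared. Tfh were gated as CD4+CD44+CD162lo/-PD-1+ and Tn as CD4+CD44-, and the labels name no treatment. The comparison used 8 of the 14 libraries of the study, both populations of each of 4 B6 mice. The other 6 libraries came from lupus-prone congenic (TC) mice. They entered the low-count filter, the scaling and the estimate of the spread, but not the 2 group means compared. The libraries were chosen by their names, B6 Tfh against B6 Tn, and every gene was considered. RNA was extracted for each mouse separately, so both populations of a mouse share strain, sex, age and spleen. Tn samples carry a source label that names Tfh, while their titles and cell type name Tn, and the titles were followed. The Tfh gate did not exclude regulatory or follicular regulatory T cells, which can also carry PD-1. The extraction protocol speaks of WT and KO mice, terms that no other label uses.

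Naive CD4 T cells circulate between blood and lymphoid organs in a quiescent state, guided by receptors such as CCR7. After antigen contact some become Tfh, which are directed by the repressor BCL6, enter B cell follicles through CXCR5 and help B cells in germinal centres through CD40L, ICOS and interleukin 21. Repeated receptor contact in the follicle also induces inhibitory receptors such as PD-1.

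Totals per library were 18215548 to 20191558 counts over 26683 gene symbols, and 13427 genes passed the filter on low counts and were tested. Levels are given in CPM, counts scaled to a TMM-adjusted library total of 1000000, and a ± b is a mean ± SD over the 4 libraries of a population. A gene was called when its adjusted p was below 0.05, and rose or fell refers to Tfh relative to Tn. Because these are bulk libraries, fewer cells of a type and less RNA per cell cannot be told apart.

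The labels were checked against markers of both populations. Bcl6, the lineage repressor, stood at 223, 187, 229 and 245 CPM in the Tfh libraries of mice 1 to 4 and at 32.5, 41.0, 33.5 and 36.2 in the Tn libraries. Cxcr5, the follicle-homing receptor, stood at 621, 641, 608 and 618 against 5.93, 13.2, 9.54 and 8.26 CPM. Il7r, a receptor for a survival cytokine of naive cells, stood at 171, 344, 316 and 285 against 675, 705, 771 and 752 CPM. No library of a population overlapped any of the other for these 3 genes, and each library matched its title. Of the T cell identity genes, Cd3d, Lck and Ptprc overlapped between the populations and were not called. Their 95% intervals of the log2 difference ran from −0.09 to 0.18 for Cd3d, −0.09 to 0.14 for Lck and −0.004 to 0.21 for Ptprc. Cd3e, Cd3g, Trac, Cd4 and Zap70 were higher in Tfh, by 1.38-fold, 1.22-fold, 1.27-fold, 1.57-fold and 2.26-fold (adjusted p = 5.61e-07, 0.000599, 0.0003, 7.98e-09 and 1.22e-11). Zap70 encodes the kinase that binds the activated receptor, and its Tfh libraries, at 587, 636, 677 and 629 CPM, lay above every Tn library, at 262, 294, 288 and 276.

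The populations differed at most genes. Of 13427 genes 4959 rose (36.9% of those tested) and 4476 fell (33.3%), 70.3% in all. Counts of list members given below are to be read beside these shares. No library of a population overlapped the other for 4540 genes higher in Tfh (33.8%) and 4038 lower (30.1%). Many of these differences were small, since 4253 called genes differed by less than 1.5-fold. Tested against a fold of 2, 2120 genes rose (15.8%) and 726 fell (5.41%). The wide changes were mostly rises: 906 called genes were over 16-fold higher in Tfh and 114 over 16-fold lower. Of the genes tested, 233 had no count in any of the 4 Tn libraries and 11 had none in any of the 4 Tfh libraries. The median log2 fold change over all genes was 0.02. TMM scaling centres the bulk of the log ratios, so this median is largely set by the scaling. Levels are relative to a library total, and a difference in total RNA per cell was not measured.

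**Figure D1:**
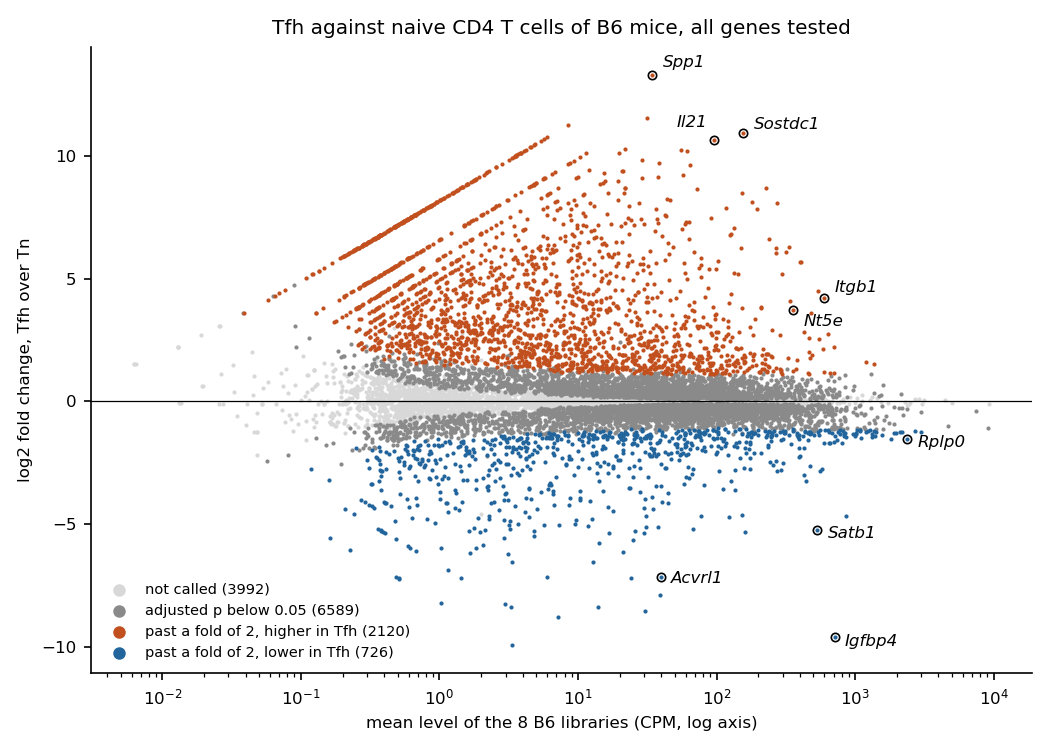
Each point is 1 of 13427 genes tested, with the mean level of the 8 B6 libraries in CPM on a log axis and the log2 fold change of Tfh over Tn on the other axis. Genes past the test against a fold of 2 are coloured (2120 higher in Tfh, 726 lower), other called genes are dark grey and the rest light grey, and Il21 and Sostdc1 are named near the top and Igfbp4 and Satb1 near the bottom. The slanting rows of points at the upper left are genes with no or few counts in Tn, whose fitted fold change depends on the prior count.

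The RNA of Tfh was spread over more genes. The 100 most abundant genes took 16.4 ± 0.524% of the counts in Tfh and 20.5 ± 0.666% in Tn. It took 995 to 1058 genes to hold 50% of the counts in the Tfh libraries and 749 to 796 in the Tn libraries, with no overlap. Genes above 1 CPM numbered 11725 to 11921 in Tfh and 10819 to 10892 in Tn. Per transcript length the most abundant genes were largely shared: 10 of the top 15 and 79 of the top 100 stood in both lists. On the scale of TPM, which divides counts by transcript length before scaling each library to one total, mt-Co1, a mitochondrial subunit of cytochrome oxidase, led in Tfh at 14849 ± 1072 TPM. Eef1a1, the elongation factor that brings tRNA to the ribosome, led in Tn at 14905 ± 792 TPM against 8501 ± 318 in Tfh. mt-Cytb, of respiratory complex III, stood second in Tfh at 11103 ± 644 TPM, and mt-Co1 second in Tn at 13505 ± 2032. Other mitochondrial genes were almost without counts: mt-Co3 had none in any B6 library, and mt-Atp6 and mt-Nd3 had 2 and 1, all in Tn. The ranking therefore covers only genes that the table counts, and the reason was not tested. Trac, the constant part of the receptor alpha chain, B2m, the light chain of MHC class I, and Actb, cytoplasmic actin, came next in Tfh at 9589 ± 428, 8747 ± 459 and 8657 ± 474 TPM. Rplp1 and Rps27, both ribosomal proteins, came next in Tn at 13277 ± 973 and 10332 ± 658 TPM. Shisa5, Pfn1 (profilin, an actin-binding protein), Trbc2, mt-Nd1 and mt-Nd2 were in the top 15 of Tfh but not of Tn, and Tpt1, Rps15, Rps29 and the loci Mir6236 and Gm23935 in that of Tn but not of Tfh. Transcripts that map to those loci resemble ribosomal RNA, and their level varied widely between Tn libraries.

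The 15 widest rises at 20 CPM or more were ranked without T cell receptor and immunoglobulin segments and without unnamed or pseudogene-like loci. They included secreted proteins, receptors and proteins better known from neurons. Spp1, which encodes the matrix cytokine osteopontin, stood at 58.1, 74.4, 83.4 and 59.1 CPM in Tfh of mice 1 to 4 and had no count in any Tn library (at least 1639-fold higher, adjusted p = 5.72e-07). Ptpn5, a tyrosine phosphatase of striatal neurons, stood at 130.2, 112, 133 and 118 CPM in Tfh and at 0.0516, 0.116, 0.176 and 0.0562 in Tn (log2 fold change 10.20, SE 0.25, adjusted p = 3.74e-14). Cpne7, a copine that binds membranes in the presence of calcium, stood at 81.2, 90.8, 132.1 and 136 and 0.0516, 0.0578, 0.117 and 0.112 CPM (log2 fold change 10.24, SE 0.51, adjusted p = 4.36e-09). All Tfh libraries of these genes lay far above all Tn libraries, which were at or near 0.

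Npas4, an activity-induced transcription factor of neurons, stood at 80.2, 64.1, 87.7 and 74.1 CPM in Tfh and at 0, 0.116, 0 and 0.225 in Tn (log2 fold change 9.72, SE 0.35, adjusted p = 3.66e-11). Il9r, the receptor chain for interleukin 9, stood at 40.7, 42.7, 29.8 and 43.6 CPM with 2 counts over all Tn libraries (a ratio of 1405, 95% counting interval 389 to 11610.0). Il1r2, a decoy receptor that binds interleukin 1 without signalling, stood at 152, 102.6, 158 and 101.3 CPM and 0, 0.463, 0.0585 and 0.112 in Tn (log2 fold change 9.64, SE 0.41, adjusted p = 7.42e-10). These 3 genes too were near 0 in Tn and without overlap. Fbn2, a fibrillin of microfibrils, stood at 39.96, 26.8, 57.7 and 49.2 CPM with 2 counts in Tn (a ratio of 1546, 95% counting interval 428 to 12770.0). Rph3a, a synaptic vesicle protein, stood at 24.3, 19.5, 26.9 and 11.8 CPM with 1 count in Tn (a ratio of 1476, 95% counting interval 264 to 58330.0), and Gna14, a G protein alpha subunit of the Gq class, at 29.3, 20.4, 28.6 and 18.1 CPM with 2 counts (a ratio of 863, 95% counting interval 238.5 to 7128). Zbtb32, a zinc finger repressor of activated lymphocytes, Slc7a10, an amino acid transporter, and Ces2c, a carboxylesterase, reached 42.1 ± 6.76, 58.2 ± 9.40 and 41.5 ± 3.13 CPM, against 0.0574, 0.0574 and 0.0566 CPM in Tn. Ecel1, Sostdc1 and Il21 completed the 15 widest rises.

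With the same classes of loci left out, the widest falls at 20 CPM or more were those of Igfbp4, Pdlim4, Ampd1 and Ly6c1. They came to −9.62, −8.56, −8.38 and −7.88 on the log2 scale. Igfbp4 binds insulin-like growth factors, and Ampd1 is an enzyme of AMP deamination. Igfbp4 stood at 2.03, 1.75, 1.57 and 1.87 CPM in Tfh of mice 1 to 4 and at 1581, 1297, 1496 and 1313 in Tn. Satb1, which folds chromatin in thymocytes and naive T cells, stood at 16.97, 40.6, 19.7 and 33.2 CPM in Tfh and at 1088, 1041, 1049 and 996 in Tn (37.8-fold lower, SE 0.26 on the log2 scale, adjusted p = 4.49e-09). Vipr1, the receptor for vasoactive intestinal peptide, stood at 5.62, 9.29, 5.96 and 10.3 against 334, 281, 309 and 319 CPM (39.8-fold lower, SE 0.14 on the log2 scale, adjusted p = 2.58e-13). Adcy6, an adenylyl cyclase that makes cyclic AMP, stood at 3.70, 3.15, 3.502 and 3.95 against 146.3, 121, 129 and 129.7 CPM (36.7-fold lower, SE 0.13 on the log2 scale, adjusted p = 9.22e-15). The groups lay far apart for these genes, and Tfh of mice 2 and 4 held more Satb1 and Vipr1 than Tfh of mice 1 and 3.

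Acvrl1, a type I receptor of the TGF-beta family, stood at 0.203, 0.899, 0.627 and 0.468 against 87.9, 72.5, 82.5 and 72.6 CPM (log2 fold change −7.15, SE 0.19, adjusted p = 1.22e-14). Dapl1 stood at 2.03, 3.30, 1.31 and 1.66 against 70.5, 76.2, 73.9 and 71.7 CPM (log2 fold change −5.13, SE 0.15, adjusted p = 5.57e-14), and Cnn3, a calponin that binds actin, at 1.16, 1.90, 1.25 and 1.25 against 57.9, 56.9, 58.7 and 59.8 CPM (log2 fold change −5.38, SE 0.11, adjusted p = 4.48e-17). Tbc1d16, a Rab GTPase activator, and Arhgap29, an activator of another GTPase family, fell 71.1-fold and 41.0-fold, from 41.4 ± 9.05 and 32.8 ± 2.97 CPM. Oas2, an antiviral enzyme, stood at 0.506, 1.15, 0.523 and 1.77 against 25.4, 52.5, 46.8 and 72.6 CPM (49.6-fold lower, SE 0.42 on the log2 scale, adjusted p = 2.21e-07), with the Tn library of mouse 1 the lowest of the Tn libraries and that of mouse 4 the highest. Sorcs2 and Lrrc75b completed the 15 widest falls, at −7.19 and −6.53 on the log2 scale.

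**Figure D2:**
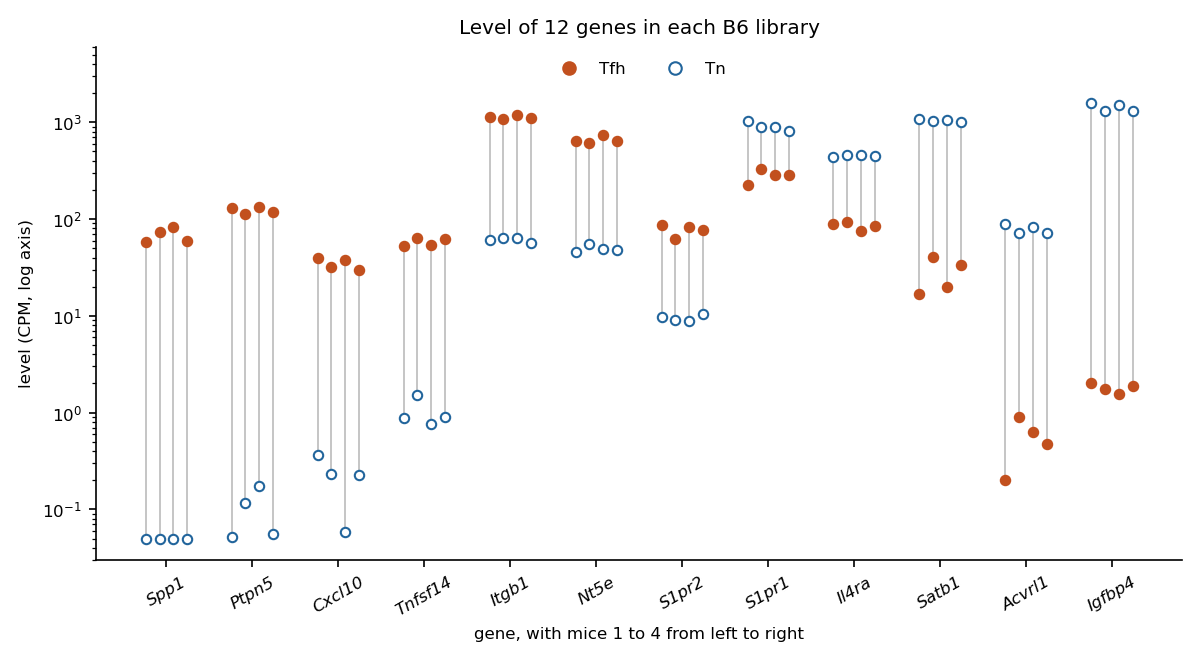
Level of 12 genes in each B6 library, in CPM on a log axis, with values below 0.05 CPM drawn at 0.05. Filled circles are Tfh and open circles Tn of mice 1 to 4, and lines join the libraries of a mouse. Tfh and Tn libraries do not overlap for any of the 12, from Spp1, with no count in Tn, to Igfbp4.

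Transcription factors of both states changed, the Tfh set mostly upward and the naive set mostly downward. Of 21 Tfh factors tested 18 rose and 1 fell, with a median log2 fold change of 2.28. Tox2 and Tox, HMG-box factors of exhausted and follicular T cells, rose to 304 ± 29.9 and 364 ± 26.8 CPM, from 0.85 ± 0.358 and 94.7 ± 4.22. Batf, an AP-1 factor required for Tfh, rose 4.86-fold to 166 ± 15.6 CPM, and Cebpa, a factor best known from myeloid cells, stood at 138, 99.7, 116 and 100.8 CPM in Tfh and at 0.103, 0.231, 0.293 and 0.112 in Tn. Nfatc1, the calcium-driven NFAT factor that responds to the receptor, stood at 935, 918, 1009.5 and 973 CPM in Tfh and 207, 225, 214 and 234.02 in Tn. Gata3, the Th2 factor, rose 2.22-fold. Sox4, which represses Th2 genes, fell, from 30.7, 23.4, 16.3 and 23.1 CPM in Tn to 5.12, 6.34, 1.78 and 2.97 in Tfh (log2 fold change −2.52, SE 0.36, adjusted p = 4.75e-05).

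Of 23 naive and stemness factors 15 fell, 8 of them past the test against a fold of 2, and 4 rose. Besides Satb1, Bach2, a repressor of effector differentiation, fell 6.96-fold from 237 ± 9.11 to 34.1 ± 5.29 CPM (SE 0.09 on the log2 scale, adjusted p = 3.27e-14). Ikzf1 (Ikaros) fell 2.28-fold, Foxp1, a guardian of quiescence, 2.35-fold, and Foxo1, which drives Ccr7, Klf2 and Il7r transcription in naive cells, 2.20-fold (adjusted p = 3.17e-12, 5.84e-14 and 8.3e-11). Lef1, a Wnt-pathway factor, fell 7.08-fold, while its relative Tcf7, which Tfh also need, stood at 1903, 2144, 2075 and 2266 CPM in Tfh and 2881, 2542, 2593 and 2458 in Tn (log2 fold change −0.32, SE 0.07, adjusted p = 0.000381). The ranges did not overlap for Tcf7, but its fall was the smaller. The 4 that rose were Tox, Nr1d2, Id3 and Id2. Id2 and Id3, which block E proteins, rose 2.32-fold and 2.83-fold.

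Of 12 Krüppel-like factors tested 4 rose and 5 fell, close to the 36.9% and 33.3% of all genes. Klf2, which keeps T cells quiescent and circulating, stood at 71.7, 133, 101.1 and 103.3 CPM in Tfh and 368, 362, 365 and 387 in Tn (log2 fold change −1.86, SE 0.23, adjusted p = 1.96e-05). Klf13, Klf7 and Klf3 fell 2.67-fold, 2.69-fold and 1.60-fold, and Klf16 1.29-fold. Klf10, which is induced by TGF-beta, Klf9 and Klf8 rose 3.39-fold, 5.09-fold and 3.12-fold.

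Factors of other helper lineages were higher too: 14 of 19 rose and 3 fell. Runx2, Nfil3, Tbx21 (T-bet, the Th1 factor) and Zeb2, a factor of terminal effectors, rose 34.1-fold, 41.0-fold, 85.7-fold and 57.2-fold, and Hopx, a survival factor of effector cells, 5.14-fold. Zbtb7b (ThPOK, which fixes the CD4 lineage), Runx3 and Stat6 were the 3 that fell, by 1.35-fold, 1.66-fold and 1.15-fold. All 18 regulatory T genes tested rose (median log2 fold change 3.77), and their summed level ran from 3801 to 4416 CPM in Tfh and from 336 to 411 in Tn. The list shares genes with others: Tigit, also counted among the inhibitory receptors below, was its widest rise, at 357 ± 34.6 CPM in Tfh. The sum is therefore no measure of regulatory T cell content. Foxp3, the regulatory lineage factor, stood at 344, 343, 279 and 280.0 CPM in Tfh and at 31.2, 43.96, 36.7 and 39.1 in Tn. The part of such cells in the other results was not tested.

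Secreted factors had the highest median of the lists described here. Of 24 tested 23 rose, 19 of them past the test against a fold of 2, with a median log2 fold change of 4.85, and Ltb alone fell (1.23-fold). Csf1, the macrophage growth factor, stood at 126, 92.0, 129 and 107 CPM in Tfh of mice 1 to 4 and at 1.91, 2.60, 2.22 and 2.30 in Tn (log2 fold change 5.65, SE 0.16, adjusted p = 2.12e-13). Cxcl10, the chemokine ligand of CXCR3, stood at 39.2, 32.2, 37.9 and 29.5 and 0.361, 0.231, 0.0585 and 0.225 CPM (log2 fold change 7.24, SE 0.25, adjusted p = 1.08e-13), and its receptor gene Cxcr3 rose as well from 2.02 ± 1.37 to 267 ± 28.7 CPM. Tgfb3, a TGF-beta isoform, rose 11.96-fold and Ebi3, a subunit of interleukins 27 and 35, from 0.0843 ± 0.0738 to 17.6 ± 1.504 CPM. Ifng, the Th1 cytokine, stood at 21.8, 18.9, 23.2 and 25.5 against 0, 0, 0.176 and 0.281 CPM (log2 fold change 7.56, SE 0.33, adjusted p = 7.65e-12). Il4, the Th2 cytokine that Tfh also make, stood at 8.66, 7.49, 8.68 and 7.91 CPM with no count in Tn (at least 195-fold higher, adjusted p = 2.6e-11). Another 7 cytokines of the list were too low to be tested. Of these Il17a had no count in any of the 8 libraries, and over all Tfh libraries Il22 had 1 count, Csf2 4 and Il13 11.

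TNF superfamily ligands all rose, 8 of 8 tested, 7 past the test against a fold of 2 (median log2 fold change 3.75). Tnfsf14 (LIGHT), a ligand of the herpesvirus entry mediator, stood at 52.1, 63.8, 54.3 and 62.5 CPM in Tfh and 0.877, 1.504, 0.761 and 0.899 in Tn (log2 fold change 5.84, SE 0.16, adjusted p = 6.2e-15). Tnfsf8 (CD30 ligand) stood at 729.6, 655, 872 and 754 against 108, 109.9, 106 and 104 CPM. Tnfsf13b (BAFF, a B cell survival factor) stood at 8.41, 6.84, 9.30 and 8.17 against 0.0516, 0, 0.0585 and 0.112 CPM (log2 fold change 7.03, SE 0.33, adjusted p = 1.89e-12). Tnfsf15 and Tnfsf4 (OX40 ligand) also rose, at levels of 1.26 and 3.24 CPM in Tfh, Tnfsf9 (4-1BB ligand) rose 4.22-fold and Tnfsf10 (TRAIL) 1.73-fold. Among the 17 receptors of the family 10 rose and 5 fell. Tnfrsf8 (CD30) rose from 0.115 to 42.5 ± 11.1 CPM, Tnfrsf9 (4-1BB) 10.4-fold and Tnfrsf1b (TNF receptor 2) 6.57-fold, and the death-domain receptor Tnfrsf1a (TNF receptor 1) fell 2.03-fold (log2 fold change −1.02, SE 0.06, adjusted p = 1.85e-11).

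Costimulatory genes rose by less. Of 20 genes of B cell help and costimulation 17 rose and none fell, with a median log2 fold change of 1.09. Cd200, a ligand that restrains myeloid cells, rose 8.33-fold. Cd40lg, the ligand that signals to B cells through CD40, stood at 98.0, 115, 121 and 123 CPM in Tfh and 89.0, 78.1, 83.99 and 91.4 in Tn (log2 fold change 0.42, SE 0.11, adjusted p = 0.00274). Its populations did not overlap, although it rose only 1.33-fold.

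Among the 10 SLAM family genes tested 7 rose and 1 fell. Slamf6, a receptor of T and B cell adhesion, stood at 684, 679, 783 and 759 against 210.3, 215, 219 and 214 CPM (log2 fold change 1.76, SE 0.07, adjusted p = 1.04e-13), and its adaptor Sh2d1a (SAP), needed for stable T and B cell contact, at 152, 184, 163 and 173 against 46.2, 46.8, 47.7 and 46.5 CPM (log2 fold change 1.84, SE 0.06, adjusted p = 7.54e-15). Fyn, the kinase that SAP recruits, rose 2.21-fold, Slamf1 2.08-fold and Cd84 1.52-fold. Ly9 was 1.13-fold lower (adjusted p = 0.0135) and its ranges overlapped. Its call was lost without Tfh of mouse 1, without Tfh of mouse 3 and without both libraries of mouse 3 (adjusted p up to 0.0806), while Cd48 and Cd244 were not called (95% intervals of the log2 difference −0.16 to 0.01 and −0.51 to 3.07).

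Inhibitory receptor genes rose in 13 of 16 cases and fell in 2. Lag3, a receptor for MHC class II, stood at 441, 462, 563 and 417 CPM in Tfh and 1.19, 8.10, 4.86 and 5.28 in Tn (log2 fold change 6.62, SE 0.36, adjusted p = 1.55e-08). Tigit, which competes with CD226 for its ligand, stood at 374, 348, 392 and 312 against 0.206, 2.60, 0.936 and 1.52 CPM (log2 fold change 8.11, SE 0.26, adjusted p = 2.3e-11), with the Tn library of mouse 1 the lowest. The PD-1 ligand genes Pdcd1lg2 and Cd274 rose 37.6-fold and 1.97-fold, Cd160 9.13-fold and Btla 2.09-fold. Lair1, a collagen receptor, went the other way, from 12.6, 12.1, 13.5 and 10.95 CPM in Tn to 0.557, 1.30, 0.732 and 1.25 in Tfh (log2 fold change −3.67, SE 0.22, adjusted p = 4.66e-11), and Cd96 fell 1.59-fold.

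Homing and egress receptors rose more often than they fell, with 15 of 24 higher and 8 lower (median log2 fold change 1.39), while their summed level was lower in Tfh (2654 to 3149.6 CPM) than in Tn (4776 to 5392). S1pr1, which leads lymphocytes out of tissue, stood at 224, 330.2, 285 and 288 CPM in Tfh and 1040.0, 899, 893 and 819 in Tn (log2 fold change −1.70, SE 0.09, adjusted p = 5.18e-11), and S1pr2, which holds cells in germinal centres, at 87.0, 62.4, 83.2 and 76.5 against 9.75, 8.96, 8.84 and 10.5 CPM (log2 fold change 3.02, SE 0.16, adjusted p = 8.95e-10). The 2 sphingosine receptors thus moved in opposite directions, each without overlap. Ptger2, a prostaglandin receptor, rose 37.8-fold to 116 ± 11.6 CPM, and the chemokine receptors Ccr8, Ccr4 and Cxcr6 46.3-fold, 18.6-fold and 21.2-fold. Gpr18 fell 7.78-fold and Ccr9, a gut-homing receptor, 7.01-fold from 6.94 ± 1.55 CPM.

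Integrin and adhesion genes rose in 15 of 24 cases and fell in 9. Itgb1, the beta chain of the VLA integrins, stood at 1146, 1090.0, 1199.7 and 1114 CPM in Tfh and 60.8, 64.2, 63.5 and 56.5 in Tn (log2 fold change 4.21, SE 0.06, adjusted p = 6.24e-19), and its alpha partners Itga4 and Itga3 rose 2.13-fold and 3.75-fold. Itgb3, the beta chain of the vitronectin receptor, stood at 11.2, 8.39, 6.64 and 10.1 against 288, 206, 222 and 235 CPM (log2 fold change −4.71, SE 0.16, adjusted p = 2.23e-11), and Itgb7, of the gut-homing integrin, fell 1.88-fold. Itga6, a laminin receptor chain, fell 3.14-fold, and Itgal, the alpha chain of LFA-1, rose 2.86-fold to 2038 ± 136 CPM. Itgb8, which activates latent TGF-beta, rose from 1.03 ± 0.523 to 182 ± 33.4 CPM.

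Semaphorins and plexins, guidance proteins that also act between T and B cells, rose in 12 of 18 cases and fell in 5. Plxnb2, a receptor for semaphorin 4C, stood at 51.3, 36.8, 42.0 and 33.8 CPM in Tfh and 0.258, 0.521, 0.117 and 0.225 in Tn (log2 fold change 7.16, SE 0.23, adjusted p = 8.89e-14), and Sema4c at 15.3, 12.5, 15.4 and 9.99 against 0.0516, 0.174, 0.0585 and 0 CPM (log2 fold change 7.44, SE 0.33, adjusted p = 8.35e-13). Both genes of this ligand and receptor pair were near 0 in Tn. Plxnb1, Plxna3 and Plxnc1 rose 8.69-fold, 5.38-fold and 4.88-fold. Sema4a fell 12.1-fold, from 267.9, 230.3, 247.1 and 253 CPM in Tn to 15.1, 23.9, 16.3 and 26.9 in Tfh. Calcium-binding S100 genes rose in 6 of 8 cases and annexins in 7 of 9, with S100a6 at 118, 155, 127 and 105 against 0.464, 2.43, 1.40 and 0.899 CPM and Anxa2, which pairs with S100a10, at 140.5, 157, 161 and 138 against 4.54, 5.09, 3.92 and 4.27 CPM. S100a10 itself rose 2.31-fold and S100a11 8.33-fold, and Anxa6 fell 1.71-fold.

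**Figure D3:**
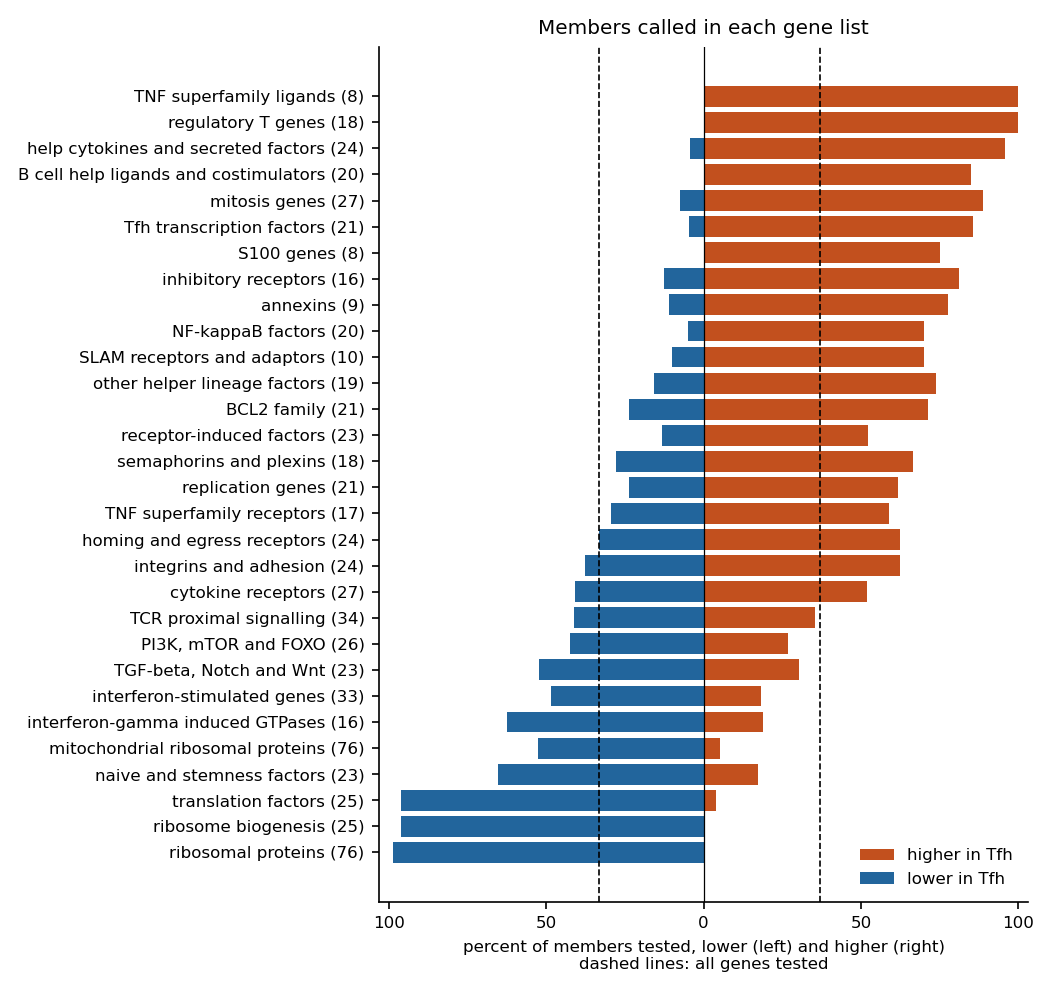
For each of 30 gene lists and families, the percent of members tested that rose (right of 0) and fell (left of 0) in Tfh relative to Tn at an adjusted p below 0.05, with the number tested after the name. Dashed lines mark the percent of all 13427 genes tested, 36.9% higher and 33.3% lower, and bars run from all higher in regulatory T genes and TNF superfamily ligands to almost all lower in ribosomal protein genes.

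Cytokine receptors changed in both directions. Of 27 tested 14 rose and 11 fell, beside 36.9% and 33.3% of all genes tested. Within the interleukin 2 receptor family, Il2rb, the beta chain shared with interleukin 15, stood at 861, 875, 940.3 and 859.9 CPM in Tfh and 56.9, 89.8, 69.4 and 72.2 in Tn (log2 fold change 3.62, SE 0.11, adjusted p = 1.32e-13), Il15ra rose 2.55-fold, and the shared gamma chain Il2rg fell 1.41-fold. Il4ra, the signalling chain for interleukins 4 and 13, stood at 88.0, 93.4, 74.6 and 83.9 against 442, 462, 459 and 448 CPM (log2 fold change −2.41, SE 0.07, adjusted p = 6.67e-15). Il7r fell 2.60-fold, Il6ra 1.71-fold and Il17ra 2.41-fold. Il10ra, Il12rb1 and Il18rap rose 3.49-fold, 8.54-fold and 15.5-fold. Il21r, the receptor for the cytokine that Tfh make, was 1.14-fold lower with overlapping ranges (log2 fold change −0.19, SE 0.05, adjusted p = 0.00271).

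Interferon receptor genes and interferon-induced genes fell more often than they rose, while the regulatory factors did not. Ifngr2, a signalling chain for interferon gamma, stood at 12.7, 10.4, 11.4 and 9.62 CPM in Tfh and 81.5, 68.9, 72.9 and 69.6 in Tn (log2 fold change −2.73, SE 0.08, adjusted p = 2.52e-15), Ifngr1, the other chain, fell 3.29-fold, and of the chains for type I interferon Ifnar1 fell 1.48-fold and Ifnar2 rose 1.44-fold. Of 33 interferon-stimulated genes 16 fell and 6 rose, where 33.3% of all genes tested fell and 36.9% rose. Usp18, which restrains the type I receptor, fell 3.40-fold, Ifit2 2.68-fold and the RNA sensor Ddx58 (RIG-I) 1.77-fold. Mx1, of a family of antiviral GTPases, rose 4.57-fold and stood at 22.3, 24.5, 16.9 and 22.5 against 2.79, 5.90, 3.75 and 6.51 CPM, and Oas1a, of the same family as Oas2, rose 3.23-fold. The oligoadenylate synthetases thus moved apart, with Oas2 and Oasl1 lower (−5.63 and −2.36 on the log2 scale) and Oas1a higher (1.69). Of 16 GTPases induced by interferon gamma 10 fell, Tgtp1 by 4.64-fold and Igtp by 2.02-fold, and 3 rose. Among 9 interferon regulatory factors 4 rose and 3 fell. Irf5 and Irf8 rose 13.7-fold and 2.39-fold and Irf7 fell 1.54-fold, and Irf2 and Irf3 were not called (95% intervals of the log2 difference −0.03 to 0.14 and −0.06 to 0.15).

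Genes of receptor-proximal signalling rose and fell about as often as all genes tested. Of 34 genes 12 rose and 14 fell, beside 36.9% and 33.3% of all genes, and the summed level ran from 17916 to 19714 CPM in Tfh and from 18043 to 18735 in Tn. Txk, a Tec kinase behind the receptor, fell 12.01-fold. Grap2 (GADS), an adaptor between LAT and SLP-76, stood at 68.8, 73.1, 62.4 and 86.0 CPM in Tfh and 442, 418, 441 and 444 in Tn (log2 fold change −2.59, SE 0.11, adjusted p = 1.29e-11), while Lcp2 (SLP-76) rose 1.71-fold. Rasgrp1, which turns diacylglycerol into RAS activation, fell 2.89-fold, and Dgka, which removes diacylglycerol, fell 2.17-fold while Dgkz rose 1.48-fold. The adaptors Pag1, Sit1 and Trat1 fell 3.73-fold, 2.57-fold and 4.63-fold. The negative regulators Ptpn22, Ubash3b and Sla rose 2.51-fold, 2.40-fold and 2.37-fold.

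Genes that receptor signalling induces rose more often than they fell, 12 against 3 of 23. Egr2, a factor of anergy and of Tfh, stood at 159.996, 151.3, 164 and 168 CPM in Tfh and 21.8, 27.8, 24.5 and 25.6 in Tn (log2 fold change 2.69, SE 0.08, adjusted p = 2.84e-15), and Irf4 rose 14.5-fold. Egr1 and Egr3 rose 1.99-fold and 1.61-fold. Myc, Ier2 and Jun were the 3 that fell, by 3.68-fold, 1.64-fold and 2.55-fold. The call of Jun was lost when any 1 of 7 of the 8 libraries was left out, all but Tn of mouse 1 (adjusted p up to 0.152 over all alternatives). Their feedback inhibitors of the MAP kinase pathway rose in 9 of 15 cases, with Dusp14 at 18.9, 14.8, 22.4 and 14.6 against 0, 0.174, 0.0585 and 0.0562 CPM, Dusp4 up 18.6-fold and Spry1 up 12.5-fold, and fell for Dusp7, Dusp10 and Dusp5 (1.82-fold, 2.27-fold and 1.64-fold).

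NF-kappaB genes rose by small amounts. Of 20 tested, 14 rose and 1 fell, with a median log2 fold change of 0.54, and 1 passed the test against a fold of 2. That gene was Malt1, a protease of the pathway, at 587, 498, 660.2 and 581 CPM in Tfh and 187, 181, 167 and 183.2 in Tn (log2 fold change 1.70, SE 0.11, adjusted p = 9.17e-10). Nfkb2 and Nfkb1 rose 1.86-fold and 1.36-fold, and Traf1 1.86-fold.

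G protein and cyclic AMP signalling changed part by part. Rgs16, a regulator that shortens chemokine receptor signals, stood at 148, 100.6, 149 and 109.6 CPM in Tfh and 0.928, 0.636, 0.761 and 0.786 in Tn (log2 fold change 7.33, SE 0.28, adjusted p = 1.71e-10), and Rgs1 and Rgs3 rose 5.61-fold and 2.80-fold. Rgs11 fell 6.50-fold from 31.2 ± 4.77 CPM and Rgs19 1.90-fold. Gnaq, the alpha subunit of Gq, rose 17.4-fold from 4.98 ± 0.36 to 86.7 ± 11.6 CPM. Gna13, which acts downstream of S1pr2, rose 1.99-fold, while its effector Arhgef1 fell 1.85-fold. Of receptors that raise cyclic AMP, Adora2a (adenosine) and Ptger2 rose 3.15-fold and 37.8-fold, and Vipr1 fell 39.8-fold. Of the phosphodiesterases that remove it, Pde3b fell 4.90-fold and Pde7a rose 2.12-fold.

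Receptors of the TGF-beta family went both ways. In the list of TGF-beta, Notch and Wnt genes 12 of 23 fell and 7 rose. Besides Acvrl1, Tgfbr3 (betaglycan) fell 4.13-fold, Acvr1b 3.89-fold and Tgfbr2 1.75-fold, and the inhibitory Smad7 stood at 49.2, 43.5, 49.0 and 41.6 CPM in Tfh and 169, 161, 168 and 179 in Tn (log2 fold change −1.89, SE 0.07, adjusted p = 1.43e-13). Tgfbr1 rose 1.26-fold and Acvr2a, an activin receptor, 2.14-fold. Lrp5, a Wnt coreceptor, fell 13.7-fold from 12.3 ± 1.29 CPM, and Rbpj, the factor that Notch acts on, rose 2.27-fold. In the PI3K list Pik3ip1, an inhibitor of PI3K, stood at 36.7, 62.9, 50.9 and 51.7 against 193, 292, 265 and 239 CPM (log2 fold change −2.29, SE 0.16, adjusted p = 5.72e-08), and the catalytic and regulatory subunits Pik3cd and Pik3r1 fell 2.06-fold and 2.27-fold. None of the 26 genes of that list rose past the test against a fold of 2 and 5 fell past it.

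Genes of the BCL2 family mostly rose, 15 of 21, and 5 fell (median log2 fold change 0.74). Bcl2, the survival protein of naive cells, stood at 155, 128, 169 and 127 CPM in Tfh and 384, 309, 339 and 307 in Tn (log2 fold change −1.21, SE 0.10, adjusted p = 6.52e-08), and Mcl1 fell 1.36-fold. Bcl2a1d and Bcl2a1b, near-identical copies of a survival gene whose counts are uncertain for that reason, rose 27.7-fold and 10.3-fold. Bcl2l2 (BCL-W) rose 5.33-fold. Of the death-promoting members, Pmaip1 (NOXA) stood at 22.9, 19.3, 27.1 and 21.6 against 1.86, 1.45, 1.46 and 3.43 CPM (log2 fold change 3.46, SE 0.28, adjusted p = 1.07e-07) and Bcl2l11 (BIM) fell 2.23-fold. Casp8, an initiator caspase, fell 1.58-fold.

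Mitosis genes rose at low levels. Of 27 tested 24 rose and 2 fell (median log2 fold change 1.98), and their summed level ran from 171 to 216 CPM in Tfh and from 54.2 to 58.3 in Tn. Top2a, a topoisomerase of dividing cells, stood at 38.6, 29.8, 32.4 and 33.6 CPM in Tfh and 11.2, 10.8, 10.5 and 9.60 in Tn (log2 fold change 1.67, SE 0.11, adjusted p = 1.35e-10). Kif11 and Tpx2, spindle proteins, rose 4.84-fold and 8.56-fold, and Kif23 and Ndc80, other genes of the list, fell 1.62-fold and 1.59-fold. Replication genes rose in 13 of 21 cases and fell in 5, Lig1 (DNA ligase) up 2.55-fold, Tyms (thymidylate synthase) up 3.91-fold and Pcna, the sliding clamp, down 1.21-fold. Of the G1 genes, Cdk6 rose 3.59-fold while the D cyclins Ccnd2 and Ccnd3 fell 1.67-fold and 1.69-fold. Cdk inhibitors differed, with Cdkn2c (p18) up 5.85-fold and Cdkn2d (p19) down 3.19-fold.

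Ribosomal protein genes fell together by similar amounts. All but 1 of the 76 tested fell, and the 75 that reached 5 CPM had log2 fold changes from −1.69 to −0.87, with a median of −1.20 and an SD between genes of 0.18. No library overlapped for any of the 75, where 30.1% of all genes tested were lower without overlap. The median ratio within a mouse was −1.38, −1.03, −1.38 and −1.07 in mice 1 to 4. Rps20, of the small subunit, stood at 320.3, 440.4, 373 and 382 CPM in Tfh and 1196, 1235, 1342 and 1102 in Tn (log2 fold change −1.68, SE 0.08, adjusted p = 3.26e-12). Rplp0, of the large subunit stalk, stood at 1075, 1397, 1174 and 1251 against 3537, 3535, 3712 and 3279 CPM (log2 fold change −1.52, SE 0.07, adjusted p = 2.95e-12). Tfh of mouse 2 held the highest level of both among Tfh libraries, and Tn of every mouse stood above it. These sizes are of relative levels in CPM and depend on the scale. Rplp1, with a transcript of 499 bases, was 2.37-fold lower in the fit. On the scale of TPM it stood at 6696 ± 777 in Tfh and 13277 ± 973 in Tn, a smaller gap.

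Ribosomal protein messages are known for starting with a C followed by a run of pyrimidines, the 5′ TOP motif through which mTOR controls their translation. The windows below, 12 bases before to 18 bases from the annotated start in GRCm38.p6 (RefSeq), are shown so that this start can be read beside the fall of each gene, with the run in capitals.
Rpl35, chr2:39005114-39005143, minus strand: ccccgccctttcCTCTTTCTCTCgaaccag
Rps6, chr4:86857350-86857379, minus strand: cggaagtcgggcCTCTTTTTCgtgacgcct
Rps10, chr17:27635227-27635256, minus strand: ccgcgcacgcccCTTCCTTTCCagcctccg
Rps18, chr17:33955648-33955677, minus strand: gtcacttccgctCTCTCTTCCacaggaggc
Rps27, chr3:90213631-90213660, minus strand: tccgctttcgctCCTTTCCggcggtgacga
Rpl15, chr14:18270969-18270998, minus strand: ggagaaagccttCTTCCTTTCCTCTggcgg
In these genes the log2 fold change was −1.45 for Rpl35, −1.34 for Rps6, −1.29 for Rps10, −1.25 for Rps18, −1.13 for Rps27 and −1.08 for Rpl15. A C at the start followed by at least 4 pyrimidines was found at 12 of 56 ribosomal protein starts that the sequence table holds (21.4%) and at 2.32% of the 9399 tested genes in it. These windows were chosen because they carry the run. Ribosomal protein genes with the run had a median log2 fold change of −1.16 and those without it −1.19. The 206 other tested genes with the run had a median of 0.03, so the run at an annotated start did not go with a lower median outside this family. Annotated starts can differ by some bases from those used in these cells.

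Other parts of the translation machinery fell with the ribosomal proteins, by less. Of 25 translation factors 24 fell and 1 rose (median log2 fold change −0.51). Eef2, the translocation factor, stood at 2859.6, 3241, 3153 and 3076 CPM in Tfh and 6173, 6452, 6619 and 5837 in Tn (log2 fold change −1.02, SE 0.06, adjusted p = 1.01e-10), Eef1b2 fell 2.48-fold and Pabpc1, the poly(A)-binding protein, 1.55-fold. Eif4e, the cap-binding protein, was the exception, at 1.07-fold higher with overlapping ranges (adjusted p = 0.0474), a call lost under 11 of 22 alternatives, among them leaving out Tfh of mouse 3 or 4 or Tn of mouse 1, 3 or 4 (adjusted p up to 0.323). Of 25 genes of ribosome biogenesis 24 fell and none rose (median −0.67). Npm1 (nucleophosmin) fell 2.24-fold, Dkc1 (dyskerin) 2.07-fold and Polr1a, the large subunit of RNA polymerase I, 1.95-fold. Snhg genes, which host small nucleolar RNAs in their introns, fell in 7 of 9 cases, Snhg8 by 2.22-fold and Snhg12 by 1.802-fold. Of 20 cytosolic aminoacyl-tRNA synthetases 16 fell and 3 rose, all by less than 2-fold. Of 76 mitochondrial ribosomal proteins 40 fell and 4 rose (median −0.18). Of 28 genes in the chaperone list 8 rose and 10 fell (median 0.01), beside 36.9% and 33.3% of all genes tested. The endoplasmic reticulum chaperone Hspa5 (BiP) rose 1.86-fold and Xbp1, a factor of the unfolded protein response, 1.93-fold, while the cytosolic and mitochondrial chaperones Cct5, Cct2 and Hspa9 fell 1.66-fold, 1.64-fold and 1.57-fold.

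**Figure D4:**
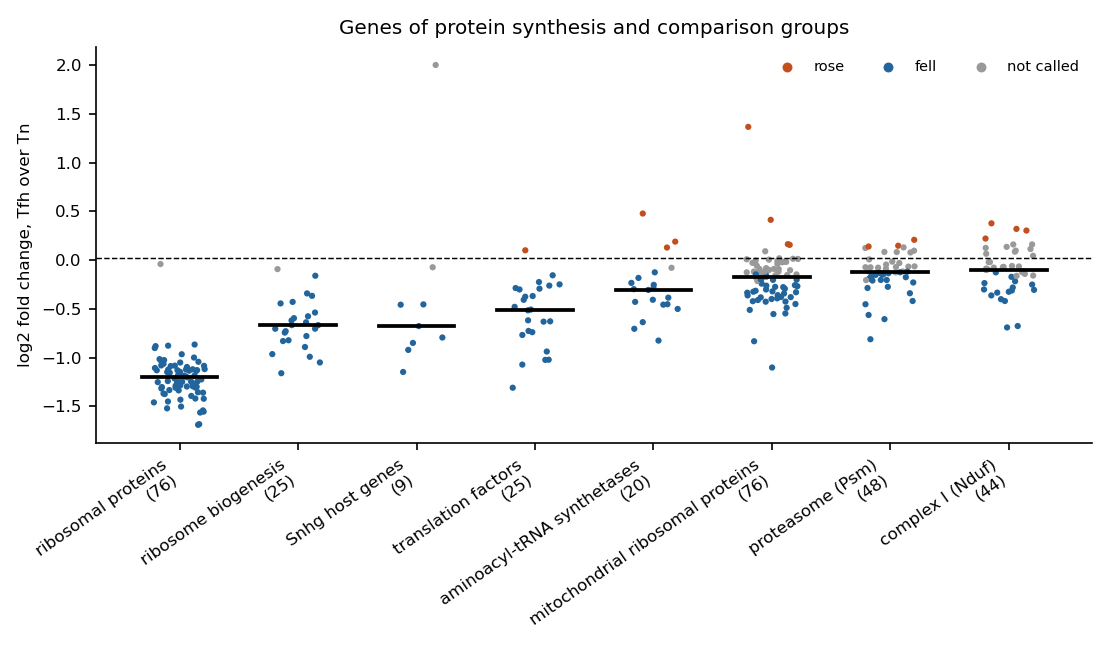
Log2 fold change of Tfh over Tn for each tested gene of 8 groups, with a black bar at the group median and the median of all 13427 genes tested as a dashed line. Cytosolic ribosomal protein genes lie in a narrow band around −1.20, biogenesis genes and translation factors lie closer to 0, and mitochondrial ribosomal proteins, proteasome genes and complex I genes scatter around 0 with medians of −0.18, −0.12 and −0.10.

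Sterol synthesis genes fell while some efflux genes moved either way. Of 28 sterol and fatty acid synthesis genes 22 fell and 3 rose (median log2 fold change −0.75). Sqle and Cyp51, enzymes of the late sterol pathway, fell 4.67-fold and 2.08-fold, and Elovl6, a fatty acid elongase, 2.52-fold. Scd2, a desaturase, rose instead, at 255, 204, 243 and 242 against 121, 80.5, 94.0 and 93.3 CPM (log2 fold change 1.28, SE 0.10, adjusted p = 2.84e-08). Npc2, which carries cholesterol out of lysosomes, stood at 120.0, 159, 130.5 and 136 against 614, 686, 704 and 625 CPM (log2 fold change −2.27, SE 0.07, adjusted p = 1.25e-14). Apoe, a lipid carrier, rose 5.37-fold, Abca1 fell 1.92-fold and Abcg1 was not called (95% interval of the log2 difference −0.05 to 0.21).

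Glycolytic genes mostly rose, 19 of 30 against 7 that fell (median log2 fold change 0.43). Slc16a3 (MCT4), which exports lactate, rose 13.2-fold from 2.39 ± 0.311 to 31.4 ± 5.71 CPM while Slc16a1 (MCT1) fell 1.56-fold. Tpi1 and Gapdh rose 2.96-fold and 1.71-fold, and Eno1, further down the pathway, fell 1.60-fold. Pdk1, which holds back pyruvate dehydrogenase, stood at 63.8, 84.4, 68.99 and 81.05 CPM in Tfh and 530.1, 521, 501 and 495 in Tn (log2 fold change −2.78, SE 0.09, adjusted p = 3.88e-14), while Pdk3 rose 1.74-fold. Genes of one-carbon and nucleotide synthesis fell in 20 of 27 cases, Impdh1 the most of those named at 3.29-fold with Ctps at 1.99-fold, and Psat1 and Tyms rose 1.93-fold and 3.91-fold. In the antioxidant list Hmox1 (haem oxygenase) rose 22.5-fold and Nfe2l2 (NRF2) fell 2.25-fold. In that list 11 of 27 genes rose and 10 fell, close to the 36.9% and 33.3% of all genes tested. Cox7a2l, a relative of a cytochrome oxidase subunit, fell 2.49-fold, from 262, 264, 277 and 241 CPM in Tn to 90.1, 122, 104 and 104 in Tfh.

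Genes of extracellular purine handling mostly rose. Nt5e (CD73), which makes adenosine, stood at 645, 607, 743 and 645 CPM in Tfh and 45.8, 55.2, 49.3 and 47.7 in Tn (log2 fold change 3.74, SE 0.11, adjusted p = 4.84e-14), Entpd1 (CD39), the step before it, rose 22.97-fold and Slc29a1, an adenosine transporter, 3.53-fold. Ada, which degrades adenosine, fell 9.94-fold from 12.7, 10.5, 10.9 and 11.3 CPM in Tn to 1.01, 1.35, 1.20 and 0.988 in Tfh. Of 16 purinergic genes 10 rose and 4 fell. Of 16 amino acid transporters 8 rose and 4 fell, with Slc43a1, Slc1a4 and Slc1a5 up 99.9-fold, 11.99-fold and 1.83-fold, and Slc7a5 and Slc38a2 down 2.45-fold and 1.98-fold.

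Potassium channel genes rose in 19 of 28 cases and fell in 4. Kcnk6 and Kcnk5, background channels, stood at 32.4, 24.9, 28.2 and 21.5 against 0.825, 1.39, 0.761 and 1.46 CPM and at 6.69, 7.24, 8.05 and 8.999 against 0.464, 0.521, 0.351 and 0.674 CPM (log2 fold change 4.59, SE 0.19, adjusted p = 8.38e-13 for Kcnk6, log2 fold change 3.93, SE 0.19, adjusted p = 3.98e-12 for Kcnk5). Kcna3, the voltage-gated channel of effector T cells, rose 3.60-fold to 99.1 ± 26.1 CPM, and Kcnn4, the calcium-gated one, 1.29-fold. Kcnmb4 fell 5.80-fold. Orphan receptors rose in 24 of 38 cases and fell in 11: Gpr35 rose from 0.0545 ± 0.0423 to 14.9 ± 5.43 CPM, and Gpr146 fell 6.82-fold.

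Chromatin genes changed in both directions, with 14 of 30 histone modifiers and remodellers lower and 9 higher, beside 33.3% and 36.9% of all genes tested. Ezh2, the Polycomb methyltransferase, rose 2.35-fold and Hdac7 1.63-fold, while the remodeller Chd7 fell 2.69-fold. Of the enzymes that oxidise methylcytosine, Tet1 stood at 10.1, 6.09, 6.85 and 7.02 CPM in Tfh and 71.1, 41.4, 39.7 and 43.3 in Tn (log2 fold change −2.70, SE 0.22, adjusted p = 1.89e-07), Tet3 fell 2.40-fold and Tet2 rose 1.43-fold. The linker histone H1f0 stood at 129.9, 118, 105 and 105 against 12.8, 11.3, 8.49 and 9.15 CPM (log2 fold change 3.45, SE 0.14, adjusted p = 2e-11), and was the 1 of 19 histone genes tested that rose.

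Promoter sequences of the changed genes were read for short motifs. The AP-1 letters TGANTCA, on either strand and anywhere from 250 bases before to 50 after the annotated start, were found in 105 of 1490 genes past the test against a fold of 2 upward (7.05%), 21 of 480 downward (4.38%), 104 of 2574 not called (4.04%) and 446 of all 9399 tested genes with a sequence (4.75%). The share over all 27025 promoters of the table, most of genes not tested here, was 7.93%. The windows below show the letters, in capitals, in promoters of genes described above (GRCm38.p6, RefSeq).
Tnfsf14, chr17:57194323-57194352, minus strand: tccatcccaccTGAGTCAcattttctggaa
Tnfrsf8, chr4:145315278-145315307, minus strand: gtggctagcccTGAGTCAtctctgcacgtg
Cxcl10, chr5:92348945-92348974, minus strand: cggagccttgcTGAGTCAtctccaaagtca
Ccr4, chr9:114496669-114496698, minus strand: gtttggggaaaTGAGTCActcagctttttt
Anxa2, chr9:69453577-69453606, plus strand: tccaagttggaTGAGTCAcccagcagggtg
Sema4c, chr1:36558385-36558414, minus strand: ggcgcagacctTGACTCAcgagctgcaaga
S100a11, chr3:93520349-93520378, plus strand: cagagacctgtTGAGTCAcagggactacaa
These 7 genes rose by 5.84, 8.49, 7.24, 4.21, 5.06, 7.44 and 3.06 on the log2 scale, in the order printed. The ETS letters CCGGAAG were rarer in the genes over 2-fold higher (7.52%) and over 2-fold lower (11.9%) than in those not called (23.1%) and in all tested (19.1%). Over all 27025 promoters their share was 9.12%. The E-box CAGCTG stood in 17.9%, 16.9% and 12.5% of the promoters of genes over 2-fold higher, over 2-fold lower and not called. Its share was 14.7% of all tested and 16.1% of all 27025 promoters, so the changed genes lay near the latter. The other motifs that were read are not reported here. A match of letters is a description of the sequence and no test was made.

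Markers of other cell types were measured beside these results. B cell markers rose in 11 of 12 tested, and the summed level of the 18 listed ran from 1947 to 2349.5 CPM in Tfh and from 612 to 638 in Tn, most of it Ighm. The defining marker Ms4a1 was too low to test, with 46 counts over all Tfh libraries and 5 over all Tn, and Cd79a stood at 0.608, 0.949, 0.47 and 0.364 against 0.516, 0.521, 0.527 and 0.505 CPM and was not called. Plasma cell markers rose in 9 of 10 tested (314 to 372 against 81.3 to 87.3 CPM in sum), Irf4 and Xbp1 among them. Myeloid markers rose in 3 of 6 tested and fell in 1, and summed to 12.7 to 29.8 CPM in Tfh and 10.8 to 17.4 in Tn. Csf1r, too low to test, had 44 against 10 counts, S100a8 84 against 18, and Cd14 and Ly6g none. NK and innate lymphoid markers rose in 3 of 4 tested and fell in 1, and summed to 26.6 to 47.1 against 13.8 to 20.1 CPM. Klrk1 had 34 against 2 counts and Ncr1 none, and Cd8b1, a CD8 chain, fell 2.80-fold. Dendritic cell markers summed to 38.7 to 47.3 against 44.4 to 61.6 CPM, mostly Bst2, with 1 of 2 tested higher and 1 lower, Xcr1 at 33 against 0 counts and Siglech at none. NKT and gamma delta T markers rose in 5 of 7 tested, all 5 past the test against a fold of 2, and summed to 16.5 to 65.4 against 13.7 to 15.7 CPM. Tfh of mouse 2 stood apart there: Trdc, the delta chain constant region, stood at 2.38, 37.8, 4.34 and 3.07 CPM in Tfh and 12.9, 12.1, 14.5 and 12.7 in Tn. Trdc was not called over all libraries and fell without Tfh of mouse 2 (log2 fold change −1.98, adjusted p = 1.64e-05). Klrb1c (NK1.1) stood at 11.04, 19.8, 8.57 and 12.3 against 0, 0.521, 0.0585 and 0.168. Their part in the rises of immunoglobulin, Cd22, Cd74 and other genes was not tested.

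Within-mouse ratios showed how far the 4 mice agreed in size. The log2 ratio of Tfh to Tn had 1 sign in all 4 mice for 10233 of 13427 genes, and its median range over mice was 0.335. Among called genes of 20 CPM or more, the widest ranges belonged to C3, Map6, Raver2, Tigit, Gzmk, Art2a-ps, Il1r2 and Sspo and the ribosomal RNA-like loci Gm23935 and Gm15564. Apart from these loci, each gene had a low level in 1 population, where a few counts and the prior count move the ratio. Map6 stood at 26.1, 22.8, 28.6 and 24.6 CPM in Tfh and at 0.980, 0.752, 0 and 0.281 in Tn. Il1r2 had 11 counts over all Tn libraries. A wide range is therefore in part a matter of few counts. C3, the central complement component, gave ratios of 7.44, 4.24, 8.43 and 5.53 in mice 1 to 4, with Tfh levels of 36.5, 10.7, 36.7 and 15.2 CPM. Mice 1 and 3 thus held more C3 in Tfh than mice 2 and 4. Raver2 gave ratios of −6.03, −3.92, −7.23 and −4.50 and Sspo, which encodes a secreted protein of cerebrospinal fluid, of 5.68, 4.22, 7.10 and 6.28. Gzmk, a granzyme of effector T cells, stood at 14.8, 39.3, 31.2 and 44.2 CPM in Tfh and 0, 1.10, 0.644 and 2.58 in Tn. For Gm23935 the Tn libraries stood at 143, 286, 70.9 and 254 CPM, and its ratio was −0.42, −1.88, 0.06 and −2.69, near 0 in mouse 3 and lowest in mouse 4. With the mouse as a block in the 8 B6 libraries neither Gm23935 nor Gm15564 was called (log2 fold change −1.23 and −1.21, adjusted p = 0.174 and 0.172), and each call was also lost without Tfh of mouse 2, 3 or 4 or Tn of mouse 2 or 4.

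**Figure D5:**
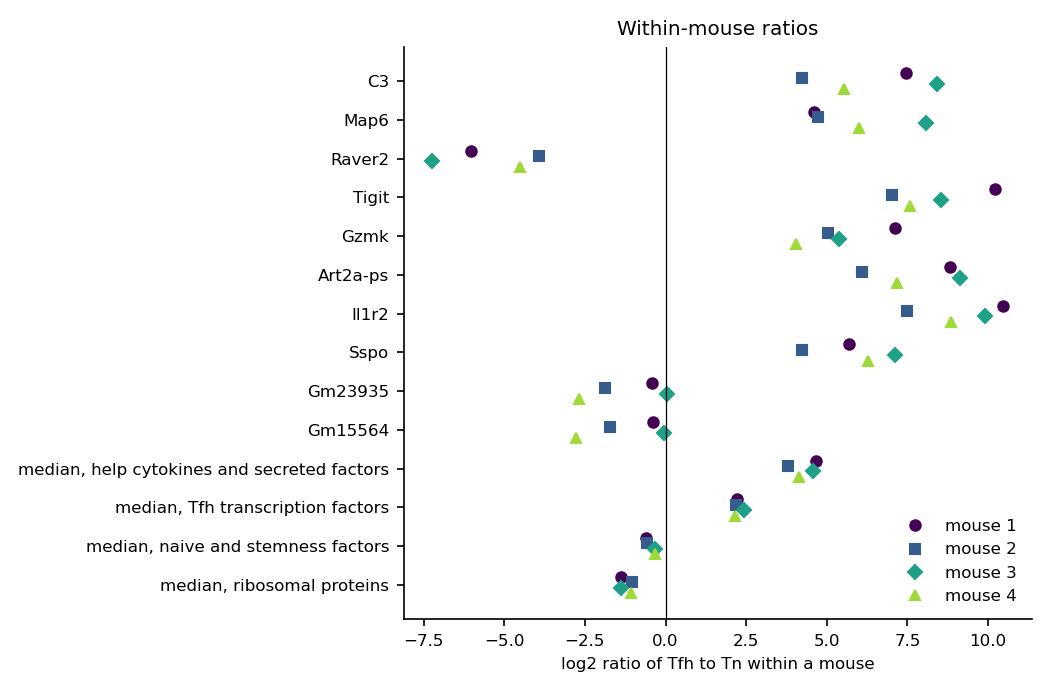
Within-mouse log2 ratio of Tfh to Tn, from log2 CPM with a prior count of 2, for the 10 called genes with the widest range over mice and for the medians of 4 gene groups. Each symbol is 1 of mice 1 to 4, and apart from Gm23935, whose ratio in mouse 3 lies above 0, every gene and group keeps 1 sign in the 4 mice.

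Mouse 2 held the highest sum in the lower population at both ends of the scale. The 429 genes over 64-fold higher in Tfh summed to 127 CPM in Tn of mouse 2 and to 67.3, 86.3 and 85.9 CPM in Tn of mice 1, 3 and 4, against 11718 to 14729 CPM in Tfh. The 114 genes over 16-fold lower summed to 220.4 CPM in Tfh of mouse 2 and to 163, 137 and 193 CPM in the other Tfh libraries. These genes were chosen by the fold itself, so the sums only describe the libraries. Without mouse 2, 2077 genes rose and 727 fell past the test against a fold of 2, against 2120 and 726 with it.

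Beside the 36.9% of all genes tested that rose and the 33.3% that fell, some classes other than protein-coding genes differed in balance. Of 248 processed pseudogenes tested 23 rose and 111 fell (median log2 fold change −0.57), and of 81 small nucleolar RNAs 2 rose and 20 fell (median −0.33). Long intergenic RNAs stood close to all genes, with 83 of 233 higher and 66 lower (median 0.15). Of 11660 protein-coding genes 4512 rose and 4032 fell. Many processed pseudogenes are near copies of ribosomal protein and other abundant genes, and the counting could assign reads of the parent gene to them, so their values are uncertain. Of 12 genes of the mitochondrial genome tested none rose and 1 fell, mt-Nd2, with overlapping ranges (log2 fold change −0.23, SE 0.10, adjusted p = 0.0491), and that call was lost under 14 of 22 alternatives, leaving out any of 6 single libraries among them (adjusted p up to 0.872). In the shortest of 10 classes of transcript length, up to 992 bases, 21.4% of genes rose and 32.7% fell, and in the longest, from 6439 bases, 39.4% rose and 37.0% fell.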

How the data were processed

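RNA of sorted splenic Tfh and Tn was sequenced from libraries made with a stranded kit, per the labels' protocols. The deposited table holds whole-number read counts per gene symbol for 14 libraries. STAR 2.7, the mouse build mm10 and DESeq2 are named per the submitters' processing notes, while the counting program, its strand setting and the annotation were not stated in what was used here. Reads of near-identical copies and of antisense partners therefore cannot be told apart. Of 26683 symbols 13427 passed edgeR's filter over all 14 libraries (count minimum of 10), so some tested genes had few counts in B6. Counts were fitted with edgeR 4.0.16 in R 4.3.3 (TMM scaling, robust quasi-likelihood) with 4 group means over all 14 libraries, and B6 Tfh was compared with B6 Tn. All adjusted p-values are Benjamini-Hochberg values over 13427 genes from edgeR's quasi-likelihood test, and a further test (glmTreat) asked for a change beyond 2-fold at the same threshold of 0.05. Intervals of log2 differences are approximate 95% intervals from the standard error. Folds are those of the fit, and genes without counts in a population got a lower bound from 3 counts over its 4 libraries. The fit was also run on simulated counts in which far fewer genes changed than in these data, and its outcome is not reported here.

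Same-numbered libraries came from the same mouse. Their deviations from the group means correlated at 0.299, 0.114, 0.0395 and 0.203 in mice 1 to 4, and for 6 of 8 libraries the best correlation was with the same mouse. The fit with the mouse as a block was an alternative. The mice are the replicates, 4 per population. Totals of 18215548 to 20191558 counts limit what can be seen in a library near 0 CPM, and intervals of count ratios cover counting error only. Levels between genes were compared on the scale of TPM, from lengths of 13173 of the tested genes, and make-up shares used library totals. Promoter and start windows came from RefSeq (GRCm38.p6), with a sequence for 9399 of the tested genes, and 11 motifs were read.

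Members and gene lists were chosen with earlier results of these data known, and symbol families were narrowed after some were seen to take in unrelated genes. Named genes were the 15 widest rises and falls at 20 CPM or more without overlap. T cell receptor and immunoglobulin segments and unnamed or pseudogene-like loci (Gm numbers, Rik, BC, AC, LOC and -ps) were left out of those. The rule also took up to 8 members of each list at 5 CPM or more with the smallest adjusted p in each direction. It further took the 15 most abundant per length, the 10 with the widest range over mice, and T cell identity genes. Foxp3, Tcf7, Cd40lg, Ifnar2, Ifngr1, the ribosomal protein genes with printed windows other than Rps27, and the markers too low to test were added after their values were seen. Some genes that this rule takes in are not reported here. Alternatives covered scaling, DESeq2 1.42.0, filters, samples, the block, transcript length and each library or mouse left out.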

Additional observations from a re-analysis of the deposited data

Results flagged for a closer look

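In 18 gene and population pairs 1 of the 4 libraries stood apart from the other 3, by a gap that took nearly the whole range of the 4 (above Dixon's 95% critical value). Chance flags about 1 in 20 groups, and 335 genes were looked at in both populations. The 18 flags are thus no more than chance would give, and they are listed only as description. In Tn of mouse 1, Tet1 stood at 71.1 CPM, with the others from 39.7 to 43.3. Ampd1 and Tbc1d16 were also highest there, at 35.6 and 54.9 CPM. In Tn of mouse 2, Grap2 was lowest at 417.9 CPM, Ifit2 at 102.1 CPM, Mcl1 at 652.6 CPM and Tgtp1 at 43.8 CPM. Impdh1 was highest in Tn of mouse 3, at 183.1 CPM, a gap of a few CPM. In Tn of mouse 4, Abca1 was lowest at 38.0 CPM, where the others stood from 52.97 CPM upward, and Fyn was highest at 442.9 CPM.

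In Tfh of mouse 1, Id2 was lowest at 74.1 CPM, with the next at 98.2 CPM, Ptpn22 was lowest at 495.8 CPM and Eif4e at 64.1 CPM, and Bcl2l2 was highest at 19.7 CPM. In Tfh of mouse 2, Trdc was highest at 37.8 CPM, with the others from 2.38 to 4.34, Cnn3 was highest at 1.90 CPM and Plxnb1 lowest at 42.2 CPM. Dgkz was highest in Tfh of mouse 4, at 1120.0 CPM. The libraries of the 2 populations still did not overlap for any of these genes except Eif4e and Trdc.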

How the results depend on the processing

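The 4 counts of called genes were recomputed under 22 alternatives and each stayed within 1.5 times its value. Genes higher in Tfh numbered 4146 to 5538 (4959 as reported), 4609 to 5085 with a library or a mouse left out, and genes lower 3957 to 4697 (4476), 4024 to 4317 with one left out. Past a fold of 2, 1459 to 2488 were higher (2120) and 560 to 793 lower (726), with 1978 to 2110 and 655 to 729 when a library or mouse was left out. With the mouse as a block in the 8 B6 libraries 4796 were higher and 4416 lower, 1920 and 698 past a fold of 2, and with the block in all 14 libraries 5188 and 4697, 2169 and 761. Apart from Gm23935 and Gm15564, the block took no call from a named gene. No gene was called in opposite directions, save 7 with an offset for transcript length.

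Of 318 called genes named here, 310 kept their direction and call in all 22 alternatives. Ltb lost its call with the length offset (log2 fold change −0.12, adjusted p = 0.0571), and Eif4e, Jun, Ly9, mt-Nd2, Gm15564 and Gm23935 lost theirs as given above. Pfn1 turned with the length offset, from −0.194 to 0.0624. Among genes not called, that offset also turned B2m (0.160), Cd48 (0.100), Irf2 (−0.0055), Lck (−0.0157), mt-Cytb (0.113) and mt-Nd1 (0.0821). B2m and Cd48 were called higher in Tfh there (adjusted p = 0.0108 and 0.0299). Of 17 named genes not called, 9 were called in their main direction under at least 1 alternative. Among them were Ptprc and Mir6236 with DESeq2 (adjusted p = 0.0187 and 0.0218) and Trbc2 with the length offset (1.15e-05). Another was mt-Co1 without Tn of mouse 1 (0.00756). With single libraries or mice left out, Lck ran from −0.0052 to 0.0773, Cd3d from −0.0054 to 0.0938 Cd79a from −0.0884 to 0.396 and Trdc from −2.03 to 0.220, with signs turned without mouse 4 or its Tfh library (Lck), Tn of mouse 4 (Cd3d), mouse 2 or its Tfh library (Cd79a) and mouse 1, 3 or 4 or its Tfh library (Trdc). The causes were not tested. Depth limits genes near 0 in a population, whose folds are bounds or wide ratios.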
